A study of Mus musculus with 3 samples.

Results

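Interleukins and their receptors were examined across the 3 arrays: all genes whose single symbol starts with Il followed by a digit, apart from 10 genes of the IL-4, IL-13, IL-18, IL-25 and IL-1β systems and the common gamma chain. They came to 67 of 19938 genes, namely 31 ligands, 30 receptor chains, 5 decoy receptors, receptor antagonists or binding proteins, and Il1bos, an antisense transcript of none of these classes. Distal colon was taken on day 7 from male BALB/c littermates aged 10 to 12 weeks. WT normal mice drank water, WT colitis mice drank 3% dextran sulfate sodium (DSS, which injures the colonic epithelium), and IL-4Rα-/- colitis mice, which carry the germline Il4ra tm1Sz null allele in all cells, drank 3% DSS as well. Each group was 1 array of RNA pooled from 4 WT normal, 3 WT colitis or 6 IL-4Rα-/- colitis mice. No array of IL-4Rα-/- mice without DSS was analysed here, so genotype was compared only within DSS-treated mice.

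Interleukins are secreted proteins through which immune, stromal and epithelial cells signal to each other, and most act at low mRNA abundance. Most members of the IL-6 family share the signalling chain gp130, encoded by Il6st, and act through JAK kinases and STAT3. IL-1 family cytokines act through receptors with a TIR domain and the adaptor MyD88, and are held in check by the receptor antagonist IL-1Ra and the decoy receptor IL-1R2. In the colon, IL-22 and IL-17 receptors lie on epithelial cells, which the cytokines of T cells and innate lymphoid cells reach from the lamina propria.

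Values are log2 signals, and a difference of 1 is 2-fold. With 1 array per group, differences carry no error and no p-value, and the number of arrays limits their precision, as does low signal for dim genes. Olfactory and vomeronasal receptor genes gave 1212 probe sets, and the 95th percentile of their signals, 3.5 on the log2 scale, served as the background level, and a fold is given only where both signals lie above it. Array medians were 4.11 to 4.18. Colonic epithelial markers were above background for 11 of 11 genes measured. In WT colitis against WT normal, 5 were higher, 5 lower and 1 equal. Aqp8 (-1.56) and Slc26a3 (-1.06) were more than 2-fold lower, as were 0.456% of all genes. In IL-4Rα-/- colitis against WT colitis, Aqp8 was higher by 1.64, past 2-fold as were 0.271% of all genes. Among 6 small intestinal genes, Lct, Sis and Fabp6 were below background on every array, with signals of at most 2.82. The other 3 were above it on every array, with signals of at least 8.32 for Fabp2, 5.54 for Rbp2 and 3.75 for Apoa4. The WT normal array stood apart in 9 of 9 exocrine pancreas genes, all more than 2-fold higher there than on the WT colitis array, with a summed linear signal of 2909 against 108.2 and, on the IL-4Rα-/- colitis array, 121.5. Results that rest on WT normal cannot be given without that array. The signal of the targeted gene Il4ra was 5.69, 6.63 and 4.76 in the order WT normal, WT colitis, IL-4Rα-/- colitis, the order used for every 3 values below, and where its probes lie relative to the deleted part is not known here. The disease activity index of the pooled mice was 0 in WT normal, 3 to 4 in WT colitis and 0 to 3 in IL-4Rα-/- colitis, so effects of genotype and of severity cannot be told apart.

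Il11 and Il1a were the members that differed by more than 2-fold on any pair of arrays. Their promoters are shown because both genes were higher in WT colitis. Both were above background there alone, and the Il1a difference from WT normal shrank to 0.14 with dim signals set to the background level. Each run holds the 250 bases before a transcription start in RefSeq (GRCm38.p6, minus strand), and capitals mark AP-1 motifs (TGANTCA, searched on both strands), which bind FOS and JUN factors.
Il11, chr7:4778142-4778391: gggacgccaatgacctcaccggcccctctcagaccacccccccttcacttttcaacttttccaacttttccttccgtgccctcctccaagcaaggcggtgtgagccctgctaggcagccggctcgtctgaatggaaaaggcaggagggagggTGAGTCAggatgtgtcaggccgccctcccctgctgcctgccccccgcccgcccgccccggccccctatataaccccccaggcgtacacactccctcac
Il11 upstream start, chr7:4782858-4783107: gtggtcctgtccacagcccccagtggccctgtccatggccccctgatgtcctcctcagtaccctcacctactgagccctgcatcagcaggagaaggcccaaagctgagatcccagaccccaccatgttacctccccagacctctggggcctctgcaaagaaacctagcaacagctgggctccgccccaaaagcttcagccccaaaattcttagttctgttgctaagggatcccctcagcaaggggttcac
Il1a, chr2:129309973-129310222: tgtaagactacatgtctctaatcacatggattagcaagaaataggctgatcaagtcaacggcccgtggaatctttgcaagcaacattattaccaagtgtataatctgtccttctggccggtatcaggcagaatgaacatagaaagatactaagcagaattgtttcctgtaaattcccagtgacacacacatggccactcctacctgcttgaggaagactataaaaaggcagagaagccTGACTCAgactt
The nearer Il11 start had an AP-1 match, TGAGTCA, 98 to 92 bases before it, and Il1a had TGACTCA 12 to 6 bases before its start. The upstream Il11 window held none, and none of the 3 windows held a STAT motif (TTCNNNGAA) or an NF-κB motif. AP-1 matches were present in 6.75% of 32851 promoter windows of this length and in 12 of 62 windows (19.4%) for the 51 members with a promoter in the table. STAT motifs were present in 7.02% of all windows and 14.5% of member windows, and NF-κB motifs in 7.25% and 8.06%. A match is a description of letters, not a measured binding site.

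Against WT normal, 2 of the 67 members were more than 2-fold higher in WT colitis (2.99%, against 1.16% of all genes) and 0 were more than 2-fold lower (against 0.456% of all genes). Il11, an IL-6 family cytokine made mainly by stromal cells, had log2 signals of 3.24, 5.43 and 3.41. It was above background in WT colitis alone, where its signal was 2.19 higher than in WT normal. Since the WT normal signal could not be told from background, the difference from the background level itself, 1.93, is the more cautious value. Using that level as a floor was chosen after the data were seen. Il1a, encoding the alarmin IL-1α, had 2.41, 3.64 and 3.05. It lay just above background in WT colitis and below it on the other arrays, with a difference of 1.23 between WT colitis and WT normal that shrank to 0.14 with dim signals set to the background level. Past 2-fold, that setting left Il11 alone.

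**Figure D1:**
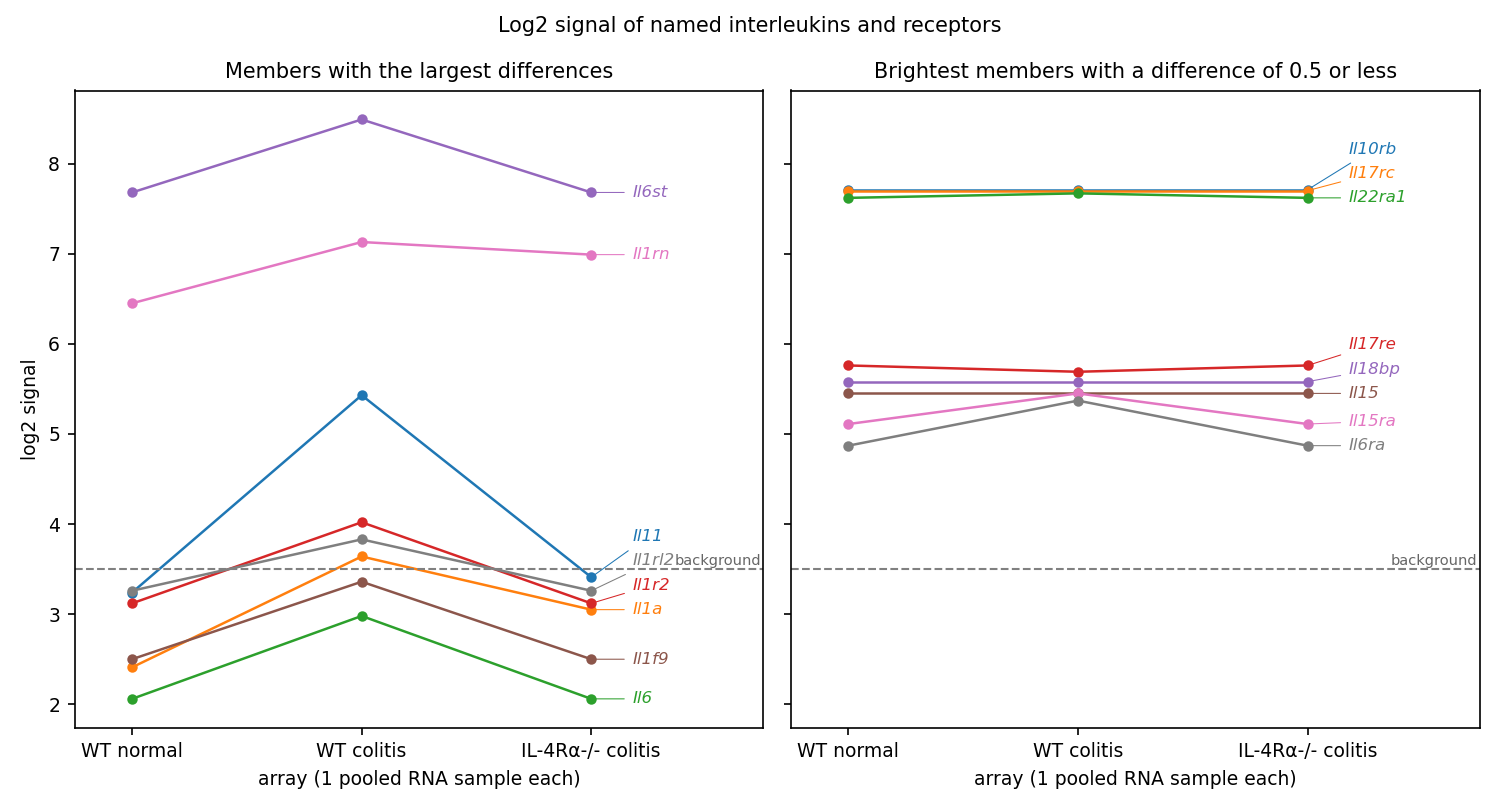
Log2 signal of 16 interleukins and receptors (y axis) on the 3 arrays (x axis), 1 point per array; lines join a gene's points, and a dashed line lies at the background level of 3.5. On the left, Il11 was above background in WT colitis alone, with 5.43, while on the right Il10rb and Il17rc had the same value on each array.

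Against WT colitis, 1 member was more than 2-fold lower in IL-4Rα-/- colitis (1.49%, against 0.908% of all genes) and 0 were more than 2-fold higher (against 0.271%). This was Il11, with a difference of -2.02, or -1.93 with the dim IL-4Rα-/- colitis signal set to the background level. Il1a differed by -0.59, or -0.14 in that setting, and its signals in WT normal and IL-4Rα-/- colitis were both below background. Compared with WT normal, 0 members were more than 2-fold higher or lower in IL-4Rα-/- colitis (against 0.186% and 0.336% of all genes). With an offset of 32 added to linear signals, Il11 differed by 0.86 and -0.82 in the comparisons with WT colitis and Il1a by 0.25 between WT colitis and WT normal, so that 0 members passed 2-fold. These comparisons share arrays, so their values are not independent. The median difference over members was -0.01 between the DSS-treated pools and 0 in both comparisons with WT normal, with a median of 0 over all genes in each.

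**Figure D2:**
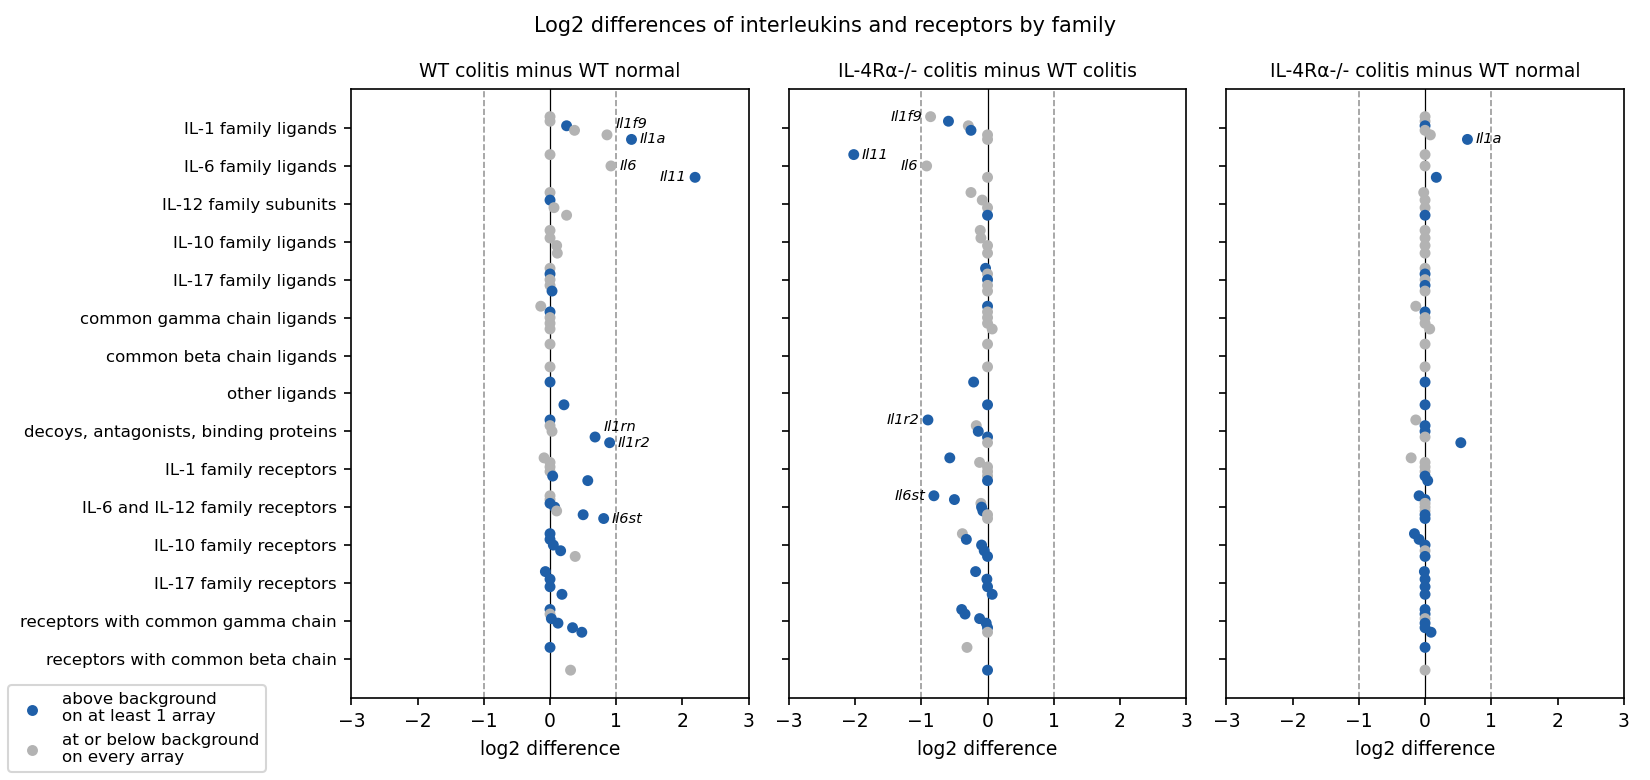
Log2 difference (x axis) of each interleukin or receptor in 15 families (y axis) for the 3 comparisons, with dashed lines at the 2-fold threshold, blue points for genes above background on at least 1 array and grey points for those at or below it on every array. Il11 lies at 2.19 in the left panel and -2.02 in the middle panel, and no point passes a dashed line in the right panel.

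Exact ties were frequent in the deposited values, which have 2 decimals. Of the 67 members, 29 (43.3%) had the same log2 signal on all 3 arrays, as had 45.8% of all genes. A further 22 members (32.8%, against 20.0% of all genes) had the same value in WT normal and IL-4Rα-/- colitis and another in WT colitis. The remaining patterns were WT normal equal to WT colitis in 4 members (5.97%, against 6.48%), WT colitis equal to IL-4Rα-/- colitis in 2 (2.99%, against 6.52%) and no tie in 10 (14.9%, against 21.2%). In 21 of the 22 the WT colitis value was the higher (95.5%, against 87.9% of all genes with such ties), and the exception was Il17re. After each array was centred on its median, WT colitis was the higher in 17 of the 22 (77.3%, against 65.7%). The origin of the ties was not tested, and an equal value does not show equal expression. Counted by any difference, 31 members were higher and 3 lower in WT colitis against WT normal (46.3% and 4.48%, against 35.8% and 12.0% of all genes). That split rests on the scaling, since median centring, which moved the tied genes below 0, gave 23 higher and 43 lower, and quantile normalization gave 26 and 37. In the comparison of the DSS-treated pools, 2 members were higher and 34 lower in IL-4Rα-/- colitis (2.99% and 50.7%, against 10.4% and 37.3% of all genes), which became 37 and 29 with median centring and 35 and 29 with quantile normalization. IL-4Rα-/- colitis was higher than WT normal in 7 members and lower in 9 (10.4% and 13.4%, against 16.4% and 17.9% of all genes), and 38 and 16 with quantile normalization.

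**Figure D3:**
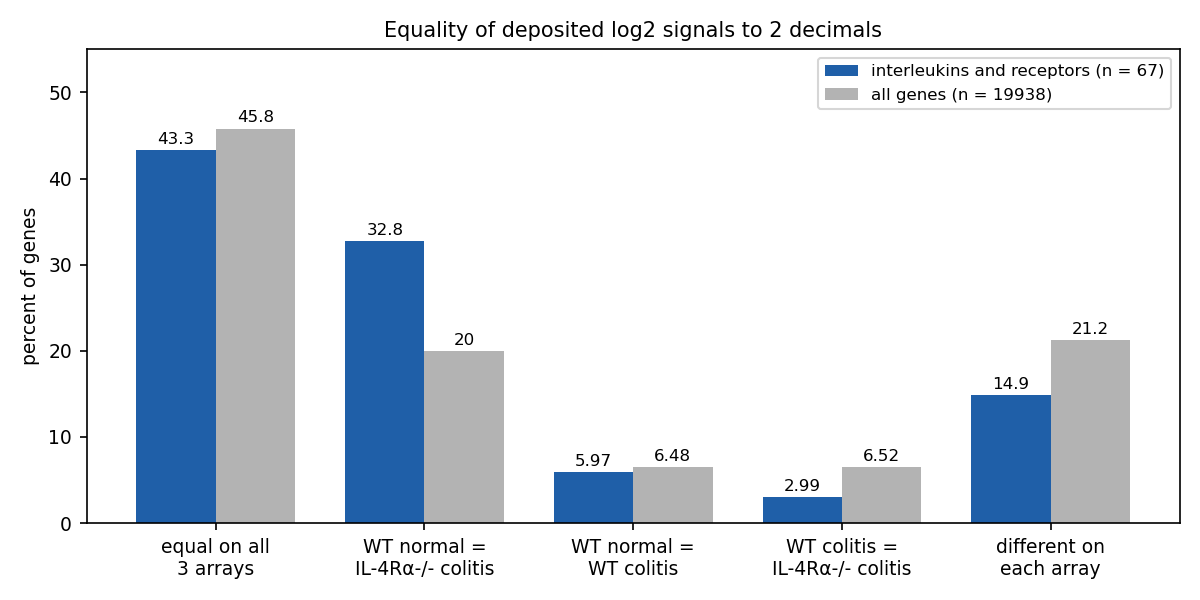
Percent of genes (y axis) whose log2 signals were equal to 2 decimals on all 3 arrays, on a pair of arrays or on none (x axis), for the 67 interleukins and receptors (blue bars) and all 19938 genes (grey bars). WT normal equalled IL-4Rα-/- colitis, but not WT colitis, in 32.8% of members and 20.0% of all genes.

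Most ligands could not be told from background. Of the 67 members, 35 (52.2%) were at or below background on every array, compared with 36.8% of all genes. This held for 22 of 31 ligands (71.0%) and 10 of 30 receptor chains (33.3%). At or below background throughout were Il17a, the signature cytokine of Th17 cells, with 2.76 on each array, and the anti-inflammatory cytokine Il10, with 2.29, 2.39 and 2.29. Il23a, the IL-23 subunit that sustains Th17 cells, had 2.70, 2.76 and 2.68. For such genes a difference in mRNA abundance was not detectable with these arrays, which is not evidence that there was none. Il22, Il1r1, Il1rl1, Il11ra1 and Il11ra2 were not analysed here, and the 2 probe sets that list Il22 together with Iltifb are not named for either gene.

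Among IL-6 family genes, WT colitis had the highest signal for the ligands Il11 and Il6 and the receptor chains Il6st and Il6ra. Il6, a pro-inflammatory cytokine, had 2.06, 2.98 and 2.06, all below background. Il6st, the shared gp130 chain, had 7.68, 8.49 and 7.68, which is 1.75-fold higher in WT colitis than on either other array. Il6ra, the ligand-binding chain of the IL-6 receptor, had 4.87, 5.37 and 4.87, which is 1.41-fold higher. The Il6st difference of 0.81 became 0.75 with quantile normalization and 0.74 with median centring. Il31, the remaining ligand listed with this family among the members, was 2.53 on each array.
Genes that act with these members but fall outside the symbol rule were taken from 4 lists of signalling genes and further receptor chains. Of 42 such genes measured, DSS-treated WT mice had 3 more than 2-fold above WT normal (7.14%, against 1.16% of all genes) and 0 below. Against the WT colitis array, IL-4Rα-/- colitis had 2 more than 2-fold lower (4.76%, against 0.908% of all genes) and 0 higher. Most of the 42 genes were above background, and for all genes with a mean signal above it these shares were 1.74% and 1.36%. Osmr, the oncostatin M receptor chain that pairs with gp130, had 5.23, 7.22 and 5.87, a 3.97-fold difference between WT colitis and WT normal. The oncostatin M gene Osm was tied at 2.82, below background, and the receptor chain Lifr had 4.92, 5.10 and 4.92. Socs3, a feedback inhibitor induced by STAT3, had 5.15, 6.48 and 5.57. WT colitis exceeded WT normal by 2.51-fold and IL-4Rα-/- colitis by 1.88-fold. Csf2rb, the common beta chain of the IL-3, IL-5 and GM-CSF receptors, had 5.61, 7.09 and 5.69. Osmr and Csf2rb were the genes past 2-fold between the DSS-treated pools, with WT colitis 2.55-fold and 2.64-fold above IL-4Rα-/- colitis. Stat3 itself had 8.88, 8.93 and 8.70. Of 9 JAK kinases and STAT factors, 0 passed 2-fold in any comparison.

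**Figure D4:**
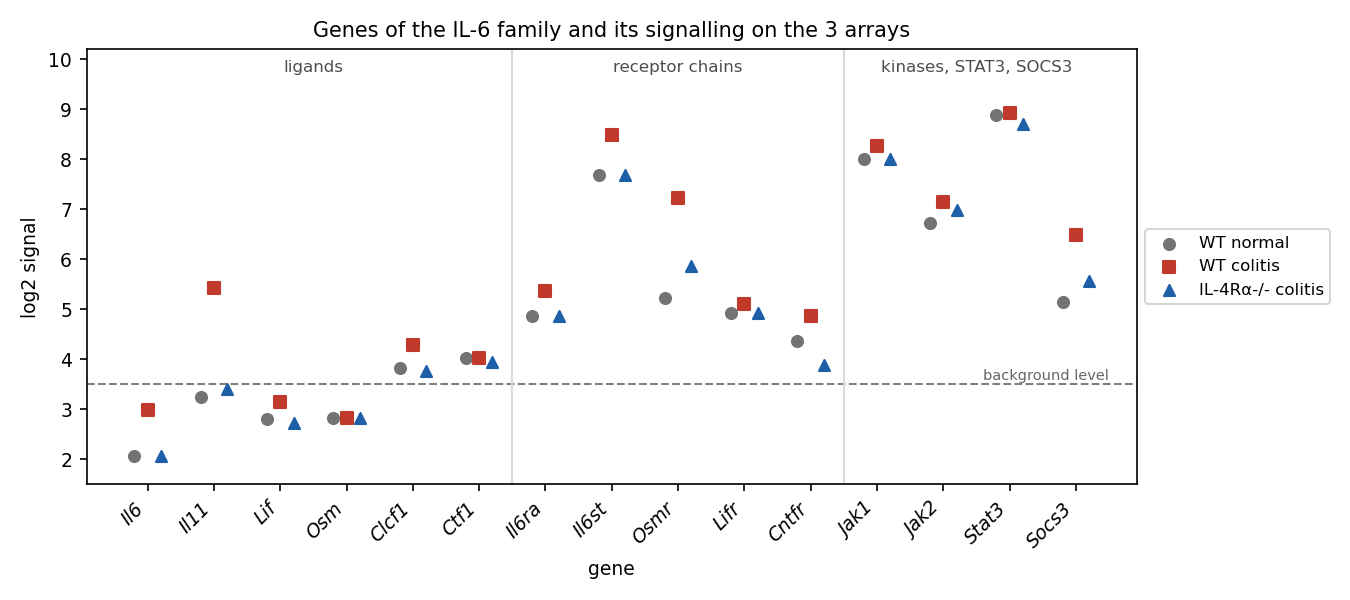
Log2 signal (y axis) of 15 genes of the IL-6 family and its signalling (x axis) on the WT normal (grey circles), WT colitis (red squares) and IL-4Rα-/- colitis (blue triangles) arrays, 1 point per array, with a dashed line at the background level of 3.5. Il11, Osmr and Socs3 were highest in WT colitis, with 5.43, 7.22 and 6.48, while Stat3 stayed between 8.70 and 8.93.

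Some fibroblast markers were also highest in WT colitis. Of 9 measured fibroblast genes, 7 had their highest signal there, and WT colitis had 3 more than 2-fold above WT normal and 4 more than 2-fold above IL-4Rα-/- colitis. The shares of all genes were 1.16% and 0.908%. The summed linear signals of the 9 fibroblast genes were 1420, 2859 and 1377, and without Dcn, the brightest, 700.7, 1124 and 658.1. Lum was tied at 5.47 and Fap, below background, at 3.21 on each array. Of 5 endothelial genes, 1 (Cdh5) was more than 2-fold higher in WT colitis in both comparisons, beside the same shares of all genes. The endothelial sums were 186.8, 299.1 and 182.8. Among 5 smooth muscle genes, DSS-treated WT mice had 4 below WT normal and 1 (Myh11) above it, with 0 past 2-fold. Against WT colitis, IL-4Rα-/- colitis was lower in 4 and equal in 1, again with 0 past 2-fold. The smooth muscle sums were 7230, 6862 and 6180. In bulk tissue, more cells of a type and more RNA per cell cannot be told apart, and the part of these cell types in the Il11 result was not tested.

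In the IL-1 family, the agonist Il1a, the decoy receptor Il1r2 and the antagonist Il1rn had their highest signals in WT colitis. Il1r2, which binds IL-1 without signalling, had 3.12, 4.02 and 3.12, and it was above background in WT colitis alone. Il1rn, encoding IL-1Ra, had 6.45, 7.13 and 6.99. Against WT normal, it was higher by 1.6-fold in the WT pool and by 1.45-fold in the IL-4Rα-/- pool of DSS-treated mice, and those pools differed by -0.14. Il33, the alarmin that ligates ST2, had 4.03, 4.28 and 4.03.
The IL-36 genes are listed under older symbols. Il1f9 (IL-36γ) had 2.50, 3.36 and 2.50, and its receptor chain Il1rl2 had 3.26, 3.83 and 3.26, whereas Il1f6 (IL-36α) was 2.41 on each array and Il1f8 (IL-36β) had 2.62, 2.99 and 2.70. Il1f5, the IL-36 receptor antagonist, had 3.05, 3.08 and 2.91. Thus, apart from the shared chain Il1rap, Il1rl2 in WT colitis was the single IL-36 value above background. Il1rap, the accessory chain shared by IL-1, IL-33 and IL-36 receptors, had 4.66, 4.70 and 4.70. The IL-18 receptor chains Il18r1 and Il18rap were tied on all arrays at 2.72 and 2.95, and the binding protein Il18bp at 5.58.
Of 13 TIR and IL-17 receptor adaptors and brakes, 0 passed 2-fold. Nfkbia, the NF-κB inhibitor IκBα and itself an NF-κB target, had 7.30, 8.29 and 7.71, and Irak3, an inhibitory kinase homologue, had 6.14, 6.73 and 6.14. Many myeloid markers, though not all, were highest in WT colitis. This held for 8 of 11 monocyte and macrophage genes and 8 of 10 neutrophil genes. Cd14, the lipopolysaccharide co-receptor of monocytes, was highest in IL-4Rα-/- colitis, with 5.75, 6.10 and 6.60, and C1qa had 6.46, 6.48 and 6.48. Of 11 measured monocyte and macrophage genes, WT colitis had 1 more than 2-fold above WT normal and 1 more than 2-fold above IL-4Rα-/- colitis. This was Cd163 in both comparisons, with 3.12, 4.22 and 3.12, above background in WT colitis alone. The shares of all genes were 1.16% and 0.908%, and the summed linear signals of the 11 genes were 1426, 2003 and 1404. Of 10 neutrophil genes, 1 was more than 2-fold higher in WT colitis in each of these comparisons. This was S100a8, with 2.62, 4.27 and 2.58, also above background in WT colitis alone. The sums of the 10 genes were 1277, 1899 and 1622, most of which came from Ly6g. The other 9 genes summed to 67.65, 103.8 and 69.91, with Mpo, Cxcr2, Camp and Ngp at or below background on every array. The part of these cells in the IL-1 family values was not tested.

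Receptor chains of epithelial responses were above background with little difference between arrays. Il10rb, shared by the IL-10 and IL-22 receptors, was 7.71 on each array, and Il22ra1, the specific chain of the IL-22 receptor, had 7.62, 7.67 and 7.62, with its other probe set tied at 5.30. Il17rc, a chain of the IL-17A and IL-17F receptor, was 7.70 on each array, its partner Il17ra had 4.80, 4.98 and 4.80, and Il17re, the IL-17C receptor, had 5.76, 5.69 and 5.76. The decoy Il22ra2, which captures IL-22, was tied at 3.02, below background. Of 4 measured IL-10 family ligands, 0 were above background on any array, and of 5 IL-17 family ligands, Il17b, tied at 3.75, and Il17d, with 4.03, 4.06 and 4.03, were above it.
Il10ra, the ligand-binding chain of the IL-10 receptor on leukocytes, had 4.22, 4.38 and 4.06, and it was the lowest in IL-4Rα-/- colitis, by 0.16 against WT normal and 0.32 against WT colitis.

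Genes of lymphocyte cytokines differed little where they could be measured. The T cell growth factor Il2 and its high-affinity receptor chain Il2ra were tied at 2.32 and 3.26, and Il21 at 2.29, all below background. Il7r, the IL-7 receptor of lymphocytes, had 4.03, 4.51 and 4.12, with WT colitis 1.39-fold above WT normal. Il15, which sustains intraepithelial lymphocytes and NK cells, was tied at 5.45, and Il15ra, which presents it, had 5.11, 5.45 and 5.11, which is 1.27-fold higher in WT colitis. Il5, the eosinophil cytokine, was tied at 2.29, its receptor chain Il5ra had 2.60, 2.91 and 2.60, and the mast cell growth factor Il9 had 3.26, 3.12 and 3.12, none above background. Of 9 mast cell markers, WT colitis had 4 more than 2-fold above WT normal and 4 more than 2-fold above IL-4Rα-/- colitis. Among these, Fcer1a, with 2.90, 4.07 and 3.03, was above background in WT colitis alone, and Cpa3, with 3.50, 6.82 and 4.29, was at background in WT normal. The shares of all genes were 1.16% and 0.908%, and the summed linear signals of the 9 markers were 293.9, 1188 and 428.2. T cell markers had 0 of 10 measured genes past 2-fold and summed linear signals of 205.5, 234.0 and 233.0. B cell markers were higher in WT colitis than on either other array in 6 of 7 genes, with sums of 266.4, 401.1 and 256.5. Ms4a1, the gene of CD20, was past 2-fold above WT normal there, beside 1.16% of all genes. Another B cell marker, Fcer2a, had 4.14, 4.75 and 3.63. It passed 2-fold between the DSS-treated pools, with the WT pool the higher by 1.12, beside 0.908% of all genes. NK and cytotoxic cell markers had their highest sum in IL-4Rα-/- colitis, with 81.92, 96.54 and 135.4. The granzyme genes Gzma (4.26, 4.69 and 5.38) and Gzmb (4.30, 4.79 and 5.63) passed 2-fold there against WT normal, as did 0.186% of all genes. Of the other markers in this list, Ncr1, Klrb1c and Prf1 were tied below background, and Nkg7 had 4.72, 4.72 and 4.78. The part of these cells in the lymphocyte cytokine values was not tested. In the IL-12 family, Il27 was tied at 4.26, while Il12a had 3.02, 3.27 and 3.02 and Il12b was tied at 2.62. Il34, a ligand of the macrophage receptor CSF1R, had 4.80, 5.01 and 4.80, and Il16 was tied at 3.66.
Of the receptor chains not yet described, 8 were above background on at least 1 array, and none of these differed by more than 0.12. Il2rb, which IL-2 and IL-15 share, was tied at 3.83, and Il3ra, the IL-3 receptor alpha chain, at 4.80. Il21r, the IL-21 receptor, had 3.61, 3.63 and 3.61, and Il9r, the IL-9 receptor, had 3.44, 3.56 and 3.44. Il12rb1, shared by the IL-12 and IL-23 receptors, had 3.63, 3.70 and 3.63, and Il27ra, the IL-27 receptor chain that pairs with gp130, had 4.21, 4.21 and 4.12. Il20rb, a chain of the IL-20 receptors, had 4.03, 4.03 and 3.94, with its other probe sets tied at 3.12 and 3.96, and Il17rd, an IL-17 receptor family member, had 4.97, 4.97 and 4.96, with its other probe set tied at 2.38. At or below background on every array were Il1f10, Il3, Il7, Il19, Il20, Il24, Il17c, Il17f, Il1rapl1, Il1rapl2, Il12rb2, Il23r, Il31ra, Il20ra and the antisense transcript Il1bos, whose differences lay between -0.38 and 0.38.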

How the data were processed

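RNA pooled from distal colon was hybridized to GeneChip Mouse Gene 1.0 ST arrays, 1 per group. The deposited values are log2 signals per probe set with 2 decimals, summarised by the authors. For the probe summary and array normalization, the method was not given in the sources used here, and the labelling text in the labels names an Agilent Cy3 kit where the methods name the GeneChip. Of 28944 probe sets, 21789 had 1 gene symbol in the platform annotation, 1621 several and 5534 none. Gene numbers matched 21698 of them to RefSeq (GRCm38.p6), which changed 0 symbols. Each gene was represented by its probe set with the highest mean over the 3 arrays. For Il17rd, Il20rb and Il22ra1, the other 4 probe sets had equal values on all arrays. Across all probe sets, 46.9% were equal on the 3 arrays.

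Differences are between log2 signals, and more than 2-fold is a difference beyond 1. With 1 array per group no test was run. Counts are set beside those over all 19938 genes. Levels are not compared between probe sets, and summed linear signals are compared only between arrays. The counting code was tested on simulated data. Alternatives were quantile normalization, centring on the array median over all probe sets, an offset of 32 on the linear scale, leaving out dim members, averaging all probe sets per gene and symbols as annotated. Setting signals below background to that level was added after the data were seen.

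Genes named by rule were members past 2-fold, the decoys, the 10 brightest members and Il6, Il10, Il11, Il17a, Il22, Il23a and Il33. The others named were chosen after their values were seen. Members and lists were chosen with earlier results of these data known. Python 3.11.15, pandas 2.3.3 and numpy 2.4.6 were used.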

Additional observations from a re-analysis of the deposited data

How the results depend on the processing

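After an offset of 32 was added to linear signals, 0 members (rather than 2) were more than 2-fold higher in WT colitis compared with WT normal, and 0 (rather than 1) were more than 2-fold lower in IL-4Rα-/- colitis compared with WT colitis. The Il11 differences were then 0.86 and -0.82, and that of Il1a 0.25, since an offset shrinks differences of dim genes. Leaving out members with a mean at or below background left 1 member, Il11, more than 2-fold higher. Setting signals below background to that level, chosen after seeing the data, also left 1. The other 59 of 63 recomputed counts and medians stayed within their limits. Of those, the 9 with symbols as annotated could not differ, since the update changed 0 symbols. Averaging probe sets could alter the values of 3 members only. Of 300 recomputed differences of named genes, 27 moved, 16 with the offset and 11 with the background level as a floor. The 60 with averaged probe sets could change for Il22ra1 alone among the genes named by rule. With quantile normalization or centring, 7 values changed sign, for Il1f5, Il22ra1 and Il23a, each at most 0.06 in size. Il11 was 2.11 higher in WT colitis with quantile normalization and 2.12 with median centring. Centring moved the median of all genes by -0.07 in WT colitis against WT normal. No paired analysis was possible because each group is 1 array, and no replicate could be left out. Low signal over background limits most ligands.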
